A study of Mus musculus with 6 samples.

Results

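Macrophages that meet viral RNA or interferon switch on a shared set of antiviral genes, and 10 of them are described here: *Cmpk2*, *Rsad2*, *Mx1*, *Mx2*, *Isg15*, *Usp18*, *Ifi44*, *Ddx58*, *Ifih1* and *Dhx58*. They were chosen by symbol, as the rows of the deposited count table that carry these names, and all 10 were found among 19309 genes, each on 1 row. All 10 also had enough counts to be tested (a mean above 5 counts over the libraries), as had 13785 genes in all. The question was whether their transcript levels differ between macrophages that lack the soluble epoxide hydrolase (sEH), an enzyme that converts fatty acid epoxides to diols, and wild-type macrophages. RNA-seq libraries came from 3 sEH-/- and 3 wild-type mice. The sEH-/- mice carry a constitutive deletion of *Ephx2* in every cell of the body, not one limited to macrophages, and the labels give neither age nor sex. The study's methods describe littermates matched for age and strain, and cells from females in most experiments. They do not give the sex for these libraries.

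Both genotypes received the same agents. Bone marrow monocytes were grown into macrophages with M-CSF and GM-CSF over 7 days and polarized with LPS and IFN-γ for 24 hours (M1). TGF-β1 was then added for a further 48 hours, which gives the M2c state that macrophages take on as inflammation resolves. The antiviral genes were thus measured in cells that had all been exposed to an interferon and to LPS, and no unstimulated cells are among the libraries analysed here. The study's methods give another time for the M1 step than the labels, which are followed here.

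The 10 genes cover the sensing of RNA and the answer to it. Ddx58 (RIG-I) and Ifih1 (MDA5) are cytosolic helicases that bind viral RNA and signal through the mitochondrial adaptor Mavs to the transcription factors Irf3 and Irf7, which switch on interferon genes, whereas Dhx58 (LGP2) binds RNA but lacks the signaling domains of the other sensors and modulates them. Secreted interferon then acts through its receptor and Stat factors on the effector genes, and on the sensors themselves. Cmpk2 is a mitochondrial nucleotide kinase, Rsad2 (viperin) makes a chain-terminating nucleotide from CTP, Mx1 and Mx2 are dynamin-like GTPases, Isg15 is a ubiquitin-like protein that is conjugated to other proteins, and Usp18 removes it and restrains the interferon receptor.

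The libraries held between 4400197 and 6096440 counts. Levels are given as CPM, counts divided by the normalized library size and scaled to a common total. As a check of the genotypes, *Ephx2* had 1 to 4 counts per sEH-/- library and 26 to 57 per wild-type library. Macrophage markers were present in every library (10 genes, together 2270 to 2800 CPM in sEH-/- against 1990 to 2530 CPM in wild-type cells), whereas *Klrb1c*, the 1 of 8 listed lymphocyte markers in the table, and *Klf1*, the 1 of 5 listed erythroid markers, had at most 0.806 and 1.97 CPM. Markers of plasmacytoid dendritic cells, known producers of interferon, summed to 151 to 171 CPM in sEH-/- against 143 to 163 CPM in wild-type libraries over the 5 genes of that list in the table. Nearly all of it came from *Tcf4* (93.2 to 124 CPM) and *Runx2* (40.3 to 56.5 CPM), and the other 3 genes had at most 5.24 CPM each. Conventional dendritic cell markers (7 genes, *Cd209a* at 0) summed to 27.5 to 58.3 against 42.4 to 59.4 CPM, neutrophil markers (7 genes) to 283 to 359 against 265 to 317 CPM, and stromal markers (5 genes) to 6.48 to 17.1 against 4.17 to 59.8 CPM, the last value in wild-type replicate 2. Most of the neutrophil sum came from *Mmp8* (246 to 330 CPM), with *S100a8* at 17.1 to 29.6 CPM and *S100a9* at 0 to 3 counts. *Clec9a* (16.4 to 42.6 CPM) made up most of the conventional dendritic cell sum. The part of other cells in the results below was not tested, and in bulk RNA fewer cells of a type cannot be told apart from less RNA per cell.

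All 10 antiviral genes had a log2 fold change (log2FC, sEH-/- over wild-type) above 0, with a median of 0.41 and a range from 0.14 for *Rsad2* to 0.97 for *Cmpk2*. Over all tested genes the median was −0.00085, and 49.8% had a log2FC above 0. Differences were tested by the quasi-likelihood method of edgeR, and p values were adjusted by Benjamini and Hochberg's method over all 13785 genes. The study's criteria require a change of more than 1.5-fold in either direction besides an adjusted p below 0.05. By these *Cmpk2* was the 1 gene of the 10 that was called, where 2.61% of all tested genes were called (1.51% higher and 1.1% lower). On the adjusted p alone, 4 of the 10 passed, *Cmpk2* and the 3 RNA sensors, where 4.01% of all tested genes passed (2.39% higher and 1.62% lower). In 8 of the 10 genes the CPM values of the 3 sEH-/- libraries all lay above those of the 3 wild-type libraries, against 11.8% of all tested genes (26.3% in either direction), and *Rsad2* and *Mx2* were the exceptions. At an unadjusted p below 0.05, 9 of the 10 passed, all but *Rsad2*, against 11.1% of all tested genes in that direction. The 10 genes were chosen with earlier results of these data known, and most of them order the libraries alike. These counts are thus neither a test of the group nor separate observations.

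**Figure D1:**
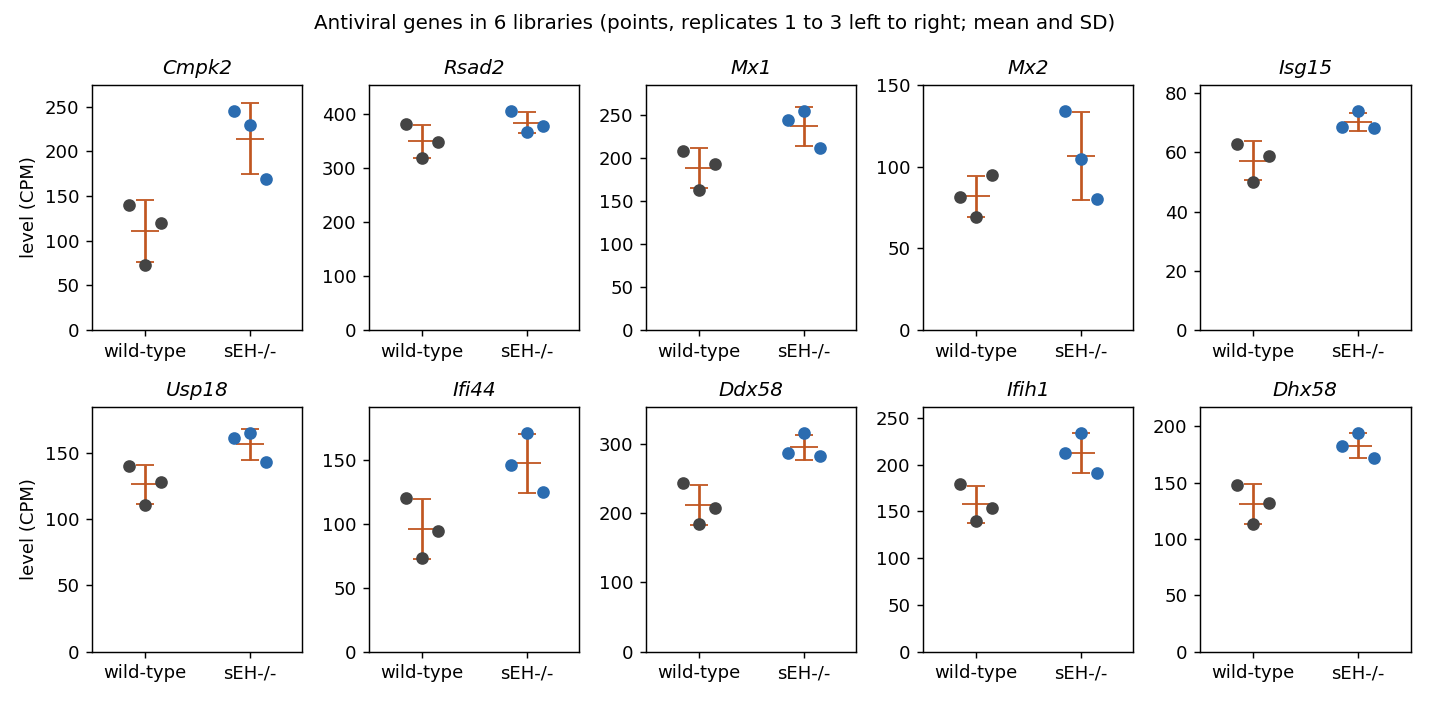
Levels of the 10 antiviral genes in CPM (y axis from 0) in the 3 wild-type (grey) and 3 sEH-/- (blue) libraries, with replicates 1 to 3 from left to right and the mean and SD in orange. *Cmpk2* has the largest ratio of means (215 against 111 CPM), and *Rsad2* and *Mx2* overlap.

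*Cmpk2* (ENSMUSG00000020638, plus strand of mm10 chromosome 12, 26469204 to 26479837) encodes the kinase that phosphorylates UMP and CMP in mitochondria. It was measured at 245, 229 and 169 CPM in sEH-/- replicates 1, 2 and 3, from 1436, 1139 and 730 counts. The wild-type libraries had 140, 72.4 and 120 CPM, from 639, 447 and 671 counts. The genotypes did not overlap, with sEH-/- replicate 3 the lowest of its group and wild-type replicate 2 far below the other two. Mean levels were 215 ± 40.3 CPM with sEH deleted and 111 ± 34.8 CPM in wild-type cells (SD, n = 3 mice each), a 1.95-fold difference (log2FC 0.97, SE 0.21, 95% interval from 0.51 to 1.43, adjusted p = 0.035 by edgeR). This call was lost with any of 4 single libraries left out, with an adjusted p of 0.051 and 0.094 without sEH-/- replicates 1 and 2 and of 0.10 and 0.14 without wild-type replicates 2 and 3. *Cmpk2* is drawn by the study among the genes it picked from these same libraries, so the call is not independent of that choice.

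*Rsad2* (ENSMUSG00000020641, minus strand of chromosome 12, 26442746 to 26456452) is the neighbor of *Cmpk2* (all coordinates are mm10), with 12751 bases between the annotated genes, which are transcribed away from each other. It encodes viperin, whose antiviral nucleotide is made from CTP. Its levels were 406, 368 and 379 CPM in the sEH-/- and 382, 320 and 348 CPM in the wild-type libraries. The 2 ranges overlapped, since wild-type replicate 1 lay above sEH-/- replicates 2 and 3. The log2FC was 0.14 (SE 0.088, 95% interval from −0.06 to 0.33, adjusted p = 0.39 by edgeR), so that a difference as large as that of *Cmpk2* lay outside the interval. *Rsad2* did not pass in any of 16 alternative analyses.

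Counts of the neighbors were also compared within each library, which needs no scaling between libraries. The counts of *Cmpk2* were 60.5%, 62.3% and 44.6% of those of *Rsad2* in sEH-/- replicates 1 to 3, against 36.7%, 22.6% and 34.5% in wild-type replicates 1 to 3. All 3 sEH-/- libraries thus held more *Cmpk2* per *Rsad2* count than any wild-type library. On the log2 scale the mean ratio was −0.86 ± 0.27 (SD, n = 3) against −1.71 ± 0.38 (SD, n = 3), a difference of 0.85 (exact two-sided permutation p = 0.1, the smallest that 3 against 3 libraries can give). With each library left out in turn the difference was between 0.63 and 1.0.

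**Figure D2:**
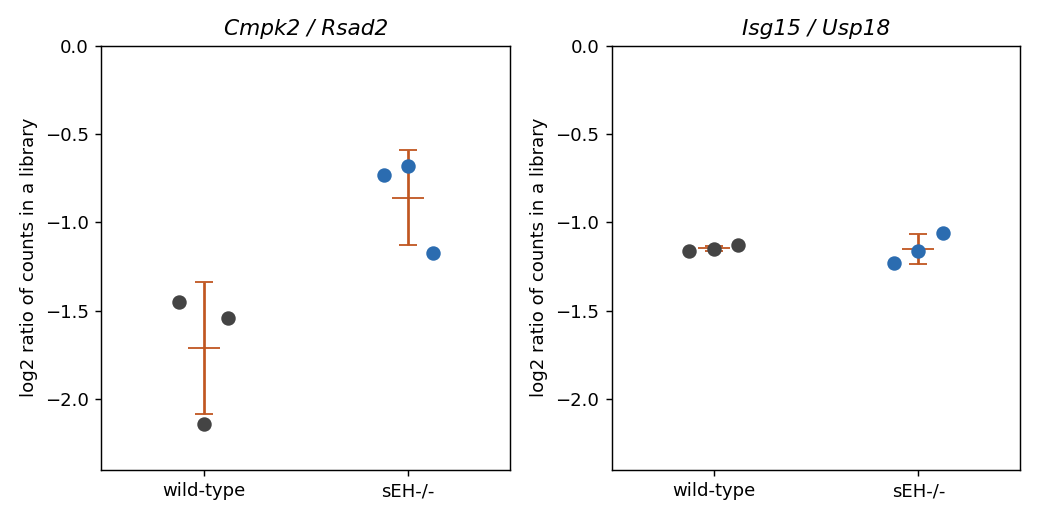
Log2 ratio of raw counts of a pair of genes within a library (y axis), *Cmpk2* over *Rsad2* on the left and *Isg15* over *Usp18* on the right, for 3 wild-type (grey) and 3 sEH-/- (blue) libraries with the mean and SD in orange. The first ratio separates the genotypes by 0.85, and the second lies near −1.15 in both.

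Promoter sequences of 6 of the 10 genes were read from RefSeq (GRCm38.p6) as 300 bases, 250 before and 50 after the start annotated there, and searched on both strands for the core of the interferon-stimulated response element, GAAA, any 2 bases, then GAAA, and for the interferon-gamma activated site, TTC, any 3 bases, then GAA. The first was found in 4 of the 6 genes, against 3.44% of 32851 promoter windows of the same length, and the second in none of the 6, against 8.3%. The neighbors are shown since their counts were set against each other above. The *Rsad2* window holds 1 match and the *Cmpk2* window none. The 150 bases before each start are given 5′ to 3′ on the strand of the gene, from chr12:26469065-26469214 for *Cmpk2* and from chr12:26456453-26456602 for *Rsad2*, with the match to the response element in capitals.
Cmpk2: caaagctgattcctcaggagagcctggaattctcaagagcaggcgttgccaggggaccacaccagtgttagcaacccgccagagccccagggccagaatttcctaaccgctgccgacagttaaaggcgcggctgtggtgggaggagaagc
Rsad2: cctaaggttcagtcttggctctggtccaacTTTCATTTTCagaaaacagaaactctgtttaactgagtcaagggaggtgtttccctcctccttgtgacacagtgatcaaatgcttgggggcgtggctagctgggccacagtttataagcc
A match is a run of letters and not a measured binding site, and its absence says only that these letters are not in the window.

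The 3 RNA sensors had log2FC values between 0.43 and 0.49. *Ddx58* (RIG-I, ENSMUSG00000040296, chromosome 4, 40203773 to 40239828) had 287, 316 and 282 CPM in sEH-/- against 243, 185 and 207 CPM in wild-type libraries. Its means were 295 ± 18.4 CPM and 212 ± 29.0 CPM (SD, n = 3 each), and its log2FC was 0.48 (SE 0.10, adjusted p = 0.033 by edgeR). The genotypes did not overlap. Among the 10 genes *Ddx58* also had the most even wild-type raw counts, with 1107, 1145 and 1157 counts, all below the 1218 to 1681 counts of the sEH-/- libraries.

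*Ifih1* (MDA5, ENSMUSG00000026896, chromosome 2, 62595798 to 62646255), which senses long double-stranded RNA, had 212, 234 and 191 CPM in sEH-/- against 179, 140 and 154 CPM in wild-type libraries. The genotypes did not overlap, and the log2FC was 0.43 (SE 0.10, adjusted p = 0.047). *Dhx58* (LGP2, ENSMUSG00000017830, chromosome 11, 100694884 to 100704271) had 182, 194 and 172 CPM in sEH-/- against 148, 113 and 132 CPM in wild-type libraries, again without overlap. Its log2FC was 0.49 (SE 0.10, adjusted p = 0.030). The sensors were thus between 1.35 and 1.40 times as high in sEH-/- cells, below the fold threshold of the study, and none was called. All 3 lost their adjusted p below 0.05 when sEH-/- replicate 2, or replicate 2 or 3 of the wild type, was left out, with values of up to 0.17 for *Ddx58*, 0.22 for *Ifih1* and 0.14 for *Dhx58*. *Ifih1* was also above 0.05 without sEH-/- replicate 1 (adjusted p = 0.054), and *Ddx58* was called without wild-type replicate 1 (log2FC 0.59, adjusted p = 0.011).

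For *Ddx58* and *Ifih1* the response element core lay just after the annotated start, and these matches are shown with up to 10 bases on each side, since they sit elsewhere than in *Rsad2* and *Isg15*. They start 3 and 33 bases into the transcript, respectively. The stretch of *Ddx58* is chr4:40239804-40239833 and that of *Ifih1* chr2:62646206-62646233, both on the minus strand of GRCm38.p6, with the match in capitals.
Ddx58: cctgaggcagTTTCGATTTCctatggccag
Ifih1: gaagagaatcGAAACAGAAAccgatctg

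*Isg15* and *Usp18* form a pair of modifier and protease. *Isg15* (ENSMUSG00000035692, chromosome 4, 156199455 to 156200796) had 68.5, 73.9 and 68.3 CPM in sEH-/- against 62.8, 49.9 and 58.7 CPM in wild-type libraries. The sEH-/- libraries all lay above the wild-type libraries, but the log2FC of 0.30 (SE 0.10, 95% interval from 0.089 to 0.52) did not pass (adjusted p = 0.095 by edgeR). *Usp18* (ENSMUSG00000030107, chromosome 6, 121245906 to 121270917) had 161, 165 and 143 CPM against 140, 111 and 128 CPM, also without overlap and also not past the threshold (log2FC 0.31, SE 0.10, 95% interval from 0.10 to 0.52, adjusted p = 0.085).

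The ratio of *Isg15* to *Usp18* counts was nearly constant. It was 42.5%, 44.9% and 47.9% with sEH deleted, against 44.7%, 45.1% and 45.7% in the wild-type libraries. The mean log2 ratio was −1.15 ± 0.086 (SD, n = 3) in sEH-/- and −1.15 ± 0.017 (SD, n = 3) in wild-type cells, and the difference of −0.0043 was below the spread between libraries (exact two-sided permutation p = 0.9).

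The *Isg15* window is printed since it holds 3 overlapping matches to the response element core, more than any other of the 6 windows. They lie between 78 and 57 bases before the start, in chr4:156200819-156200968 on the minus strand of GRCm38.p6, and are in capitals.
Isg15: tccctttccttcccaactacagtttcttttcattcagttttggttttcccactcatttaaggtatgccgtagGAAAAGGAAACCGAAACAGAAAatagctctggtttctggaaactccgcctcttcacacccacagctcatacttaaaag

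*Mx1* and *Mx2* lie next to each other on chromosome 16 (97447035 to 97462907 and 97535308 to 97560900), are transcribed away from each other and are 72400 bases apart. Both are listed in the deposited table as polymorphic pseudogenes, as the reference strain C57BL/6J is known to carry defective alleles, so that their counts measure transcripts and say nothing of a working protein. *Mx1* (ENSMUSG00000000386) had 245, 255 and 212 CPM in sEH-/- against 209, 163 and 193 CPM in wild-type libraries. The genotypes were separated only by the small gap between sEH-/- replicate 3 and wild-type replicate 1, and the log2FC of 0.34 (SE 0.10, 95% interval from 0.11 to 0.57) did not pass (adjusted p = 0.084). *Mx2* (ENSMUSG00000023341) had 134, 105 and 80.3 CPM against 81.4, 69.3 and 94.8 CPM. Its 2 ranges overlapped, its sEH-/- raw counts spread the widest of the 10 genes, 2.25-fold, and its log2FC was 0.39 (SE 0.17, 95% interval from 0.015 to 0.76, adjusted p = 0.20). *Mx1* and *Mx2* are related in sequence, and reads that fit both were removed with the other multi-mapping reads.

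*Ifi44* (ENSMUSG00000028037, chromosome 3, 151730922 to 151749960), an interferon-induced gene with a less settled role, had 146, 171 and 125 CPM in sEH-/- against 120, 72.9 and 94.7 CPM in wild-type libraries. The ranges were separated by a narrow gap. The log2FC of 0.63 (SE 0.16, 95% interval from 0.27 to 0.99) was the second largest of the 10 and above the fold threshold, but its adjusted p of 0.056 was not below 0.05. It was called in 5 of 16 alternative analyses: with DESeq2 (adjusted p = 0.0024), without a filter on low counts (0.029), with at least 10 counts required in every library (0.048), and with sEH-/- replicate 3 (0.038) or wild-type replicate 1 (0.016) left out.

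**Figure D3:**
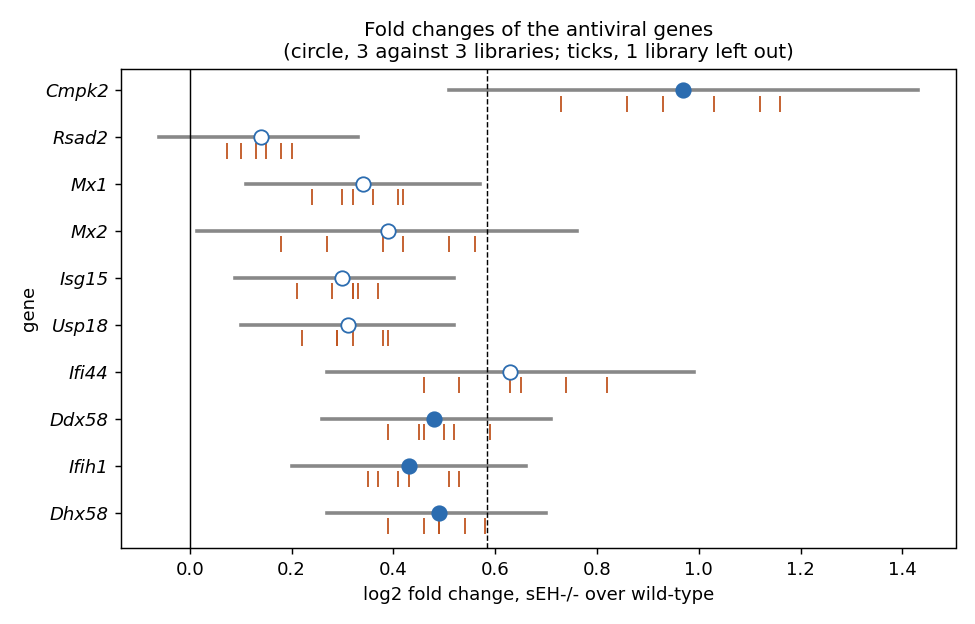
Log2FC values (x axis, sEH-/- over wild-type) of the 10 antiviral genes, with the estimate (circle, filled where the adjusted p was below 0.05), its 95% interval (grey bar) and the values with each library left out (orange ticks). The dashed line is the 1.5-fold threshold, which *Cmpk2* (0.97) and *Ifi44* (0.63) exceed, and the interval of *Rsad2* spans 0.

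The single libraries were ordered alike in most of the 10 genes. The CPM was lowest in wild-type replicate 2 in all 10, against 20.1% of all tested genes, and highest in sEH-/- replicate 2 in 7 and in sEH-/- replicate 1 in 3. Among the sEH-/- libraries, replicate 3 was the lowest in 9 genes, and among the wild-type libraries replicate 1 was the highest in 9. The wild-type part of this order was not particular to the antiviral genes. Each listed macrophage marker was also lowest in wild-type replicate 2 and, within the wild type, highest in replicate 1. *Csf1r* had 390 and 481 CPM in these 2 libraries, and *Lyz2* 190 and 253 CPM. Set against the wild-type mean of each gene, the 10 genes had a median log2 difference of 0.44, 0.51 and 0.27 in sEH-/- replicates 1, 2 and 3 and of 0.17, −0.19 and 0.022 in wild-type replicates 1, 2 and 3. The same medians over all tested genes lay between −0.011 and 0.0043. Wild-type replicate 2 is also the library with the highest summed stromal markers, and the part of these cells in its low values was not tested.

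The wild-type part of this order moved with the depth of the libraries. Wild-type totals differed by 1.32-fold, but in 8 of the 10 genes the wild-type raw counts differed by less than that, and by as little as 1.05-fold for *Ddx58*. The CPM of most of the 10 genes was therefore lowest in the deepest wild-type library and highest in the shallowest. The sEH-/- libraries were ordered otherwise, as the shallowest, replicate 3, had the lowest CPM of its genotype in 9 genes. Level wild-type counts were not particular to the 10 genes. Macrophage markers had them too, such as *Lyz2* (1155, 1173 and 1154 counts in wild-type replicates 1 to 3) and *Csf1r* (2191, 2410 and 2227). Other genes did not, such as *Traf6*, whose wild-type counts differed by 1.6-fold. The share over all tested genes was not determined. In the sEH-/- libraries both markers were level as well, *Lyz2* with 1153, 1170 and 1154 counts and *Csf1r* with 2476, 2628 and 2353. The 10 genes were not, as their sEH-/- counts differed by 1.36-fold (*Isg15*) to 2.25-fold (*Mx2*), against 1.32-fold for the sEH-/- totals. Raw counts were separated between the genotypes in 3 of the 10 genes, *Cmpk2*, *Ddx58* and *Dhx58*, against 3.52% of all tested genes in that direction. The authors removed duplicate reads, and the 10 genes carried between 0.103 (*Ifi44*) and 0.442 (*Rsad2*) counts per exonic base on average. When counts were corrected for a ceiling of 1 read start per base, the log2FCs were 1.08 for *Cmpk2*, 0.53 for *Ddx58*, 0.56 for *Dhx58* and 0.17 for *Rsad2*, and the same genes passed. Lengths were those of all annotated exons joined, so the correction was too small for a gene with long, rarely used exons. The part of the depth in the differences was not tested beyond these values and the fit with the library total as a covariate, in which the log2FC of *Cmpk2* was 0.96 and its adjusted p 0.068.

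Libraries of similar depth were set side by side, a choice made after the values were seen. Between sEH-/- replicate 3 and wild-type replicate 1, the shallowest of each genotype, the log2 ratio of CPM had a median of 0.076 over the 10 genes, with *Cmpk2* at 0.27, *Ddx58* and *Dhx58* at 0.21 and *Mx2* at −0.019. Between sEH-/- replicate 1 and wild-type replicate 2, the deepest of each genotype, the median was 0.61 and *Cmpk2* was at 1.76. Over all tested genes both medians were near 0, at −0.0081 and −0.0077. The libraries of middle depth were sEH-/- replicate 2 and wild-type replicate 3. Their CPM was 229 against 120 for *Cmpk2* and 316 against 207 for *Ddx58*. For *Dhx58* it was 194 against 132 and for *Mx2* 105 against 94.8. The shallowest pair also joined the library lowest within sEH-/- in 9 genes to the one highest within the wild type in 9. Each pair is of single libraries and allows no test, and biological spread between mice cannot be told apart from depth here.

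**Figure D4:**
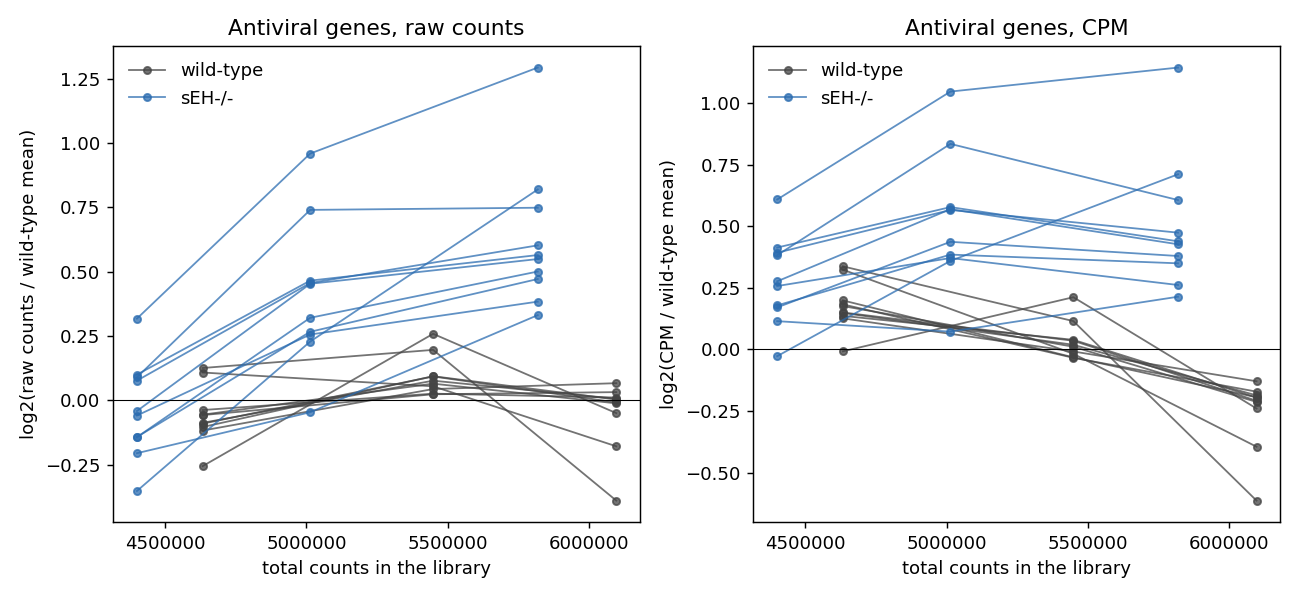
Log2 of raw counts (left) and of CPM (right) of the 10 antiviral genes relative to the wild-type mean of each gene (y axis), against the total counts of the library (x axis), with 1 line per gene for wild-type (grey) and sEH-/- (blue) libraries. In most genes wild-type raw counts stay nearly level between totals of 4632688 and 6096440 while their CPM falls, whereas sEH-/- raw counts are highest in the deepest sEH-/- library in all 10 genes.

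Levels of the 10 genes were compared with each other per kilobase of exon. In wild-type cells *Rsad2* had the highest level (80.8 ± 7.11 CPM per kilobase, SD, n = 3), followed by *Isg15* (75.5 ± 8.70), and the ranges of these 2 genes overlapped. A clear step followed to *Mx1* (49.8 ± 6.12), *Usp18* (45.3 ± 5.37) and *Dhx58* (40.0 ± 5.42), whose neighbors in the order overlapped. The ranges of *Dhx58* and the next gene, *Ddx58* (30.0 ± 4.12), met, with the lowest *Dhx58* and the highest *Ddx58* value both at 34.5. *Cmpk2* (26.6 ± 8.37), *Mx2* (22.6 ± 3.53), *Ifih1* (19.3 ± 2.38) and *Ifi44* (15.7 ± 3.89) formed the lower end, with overlap between neighbors. In sEH-/- cells *Isg15* (92.9 ± 4.23) and *Rsad2* (88.6 ± 4.44) overlapped at the top, and *Cmpk2* (51.5 ± 9.67) stood above *Ddx58* (41.8 ± 2.61) with overlapping ranges. The sensors kept the order *Dhx58*, *Ddx58*, *Ifih1* in both genotypes. Lengths are those of all annotated exons joined, so that a gene with long, rarely used exons appears lower than it is.

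Of a list of 43 further genes of RNA sensing, ISG15 conjugation and interferon signaling, 40 were in the table and 38 could be tested. Of these, 30 had a log2FC above 0 and 8 below 0, with a median of 0.16, and 1 was called, *Ikbke*, at a background of 2.61%. *Ikbke* encodes IKKε, the inducible kinase that acts beside Tbk1 on Irf3. It had 202, 256 and 215 CPM in sEH-/- against 170, 117 and 143 CPM in wild-type libraries (log2FC 0.65, SE 0.13, adjusted p = 0.030 by edgeR), and lost its call when sEH-/- replicate 2 (adjusted p = 0.089) or replicate 2 (0.13) or 3 (0.14) of the wild type was left out. For *Tbk1* itself the log2FC was 0.015 (SE 0.066, 95% interval from −0.13 to 0.16), and for *Mavs* −0.18 (SE 0.066, adjusted p = 0.13). *Mavs* was lower in sEH-/- libraries without overlap, with 141, 135 and 149 CPM against 161, 160 and 161 CPM in wild-type libraries. Of the 38 genes, 16 did not overlap in either direction, against 26.3% of all tested genes. In 13 of them the sEH-/- libraries were higher, against 11.8% of all tested genes.

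On the adjusted p alone, 3 of the 38 genes passed, all higher, where 4.01% of all tested genes passed (2.39% higher), and the other two besides *Ikbke* are named after their values were seen. *Azi2*, an adaptor that binds Tbk1, was at 143 ± 8.26 CPM without and 110 ± 2.44 CPM with a functional *Ephx2* (SD, n = 3 each), a log2FC of 0.38 (SE 0.069, adjusted p = 0.024). *Uba7*, the enzyme that activates Isg15 for conjugation, had 181, 199 and 165 CPM against 144, 111 and 127 CPM, a log2FC of 0.52 (SE 0.10, adjusted p = 0.028). Its adjusted p was 0.082 without sEH-/- replicate 2 and 0.13 and 0.14 without wild-type replicates 2 and 3, and it was called without sEH-/- replicate 3 (log2FC 0.59) or wild-type replicate 1 (0.61). *Azi2* was likewise above 0.05 without the first 3 of these libraries (adjusted p = 0.071, 0.13 and 0.12). The 3 conjugation genes, *Uba7*, *Ube2l6* and *Herc6*, had log2FC values from 0.30 to 0.52, the group with the highest median (0.45). Of these *Ube2l6* (adjusted p = 0.051 by edgeR) and *Herc6* (0.15) did not pass. The 5 tested inhibitors of RNA sensing, the group with the lowest median (−0.10), lay between −0.14 and 0.30, and none passed (smallest adjusted p 0.089). The other groups had medians between 0.14 and 0.19, and a difference between groups was not tested. *Ifnb1* and *Ifna4*, which encode type I interferons, were at 0 counts in all 6 libraries, which allows up to 0.49 to 0.69 CPM per library. A difference in the transcripts of *Ifnb1* and *Ifna4* was thus not detectable at this depth.

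**Figure D5:**
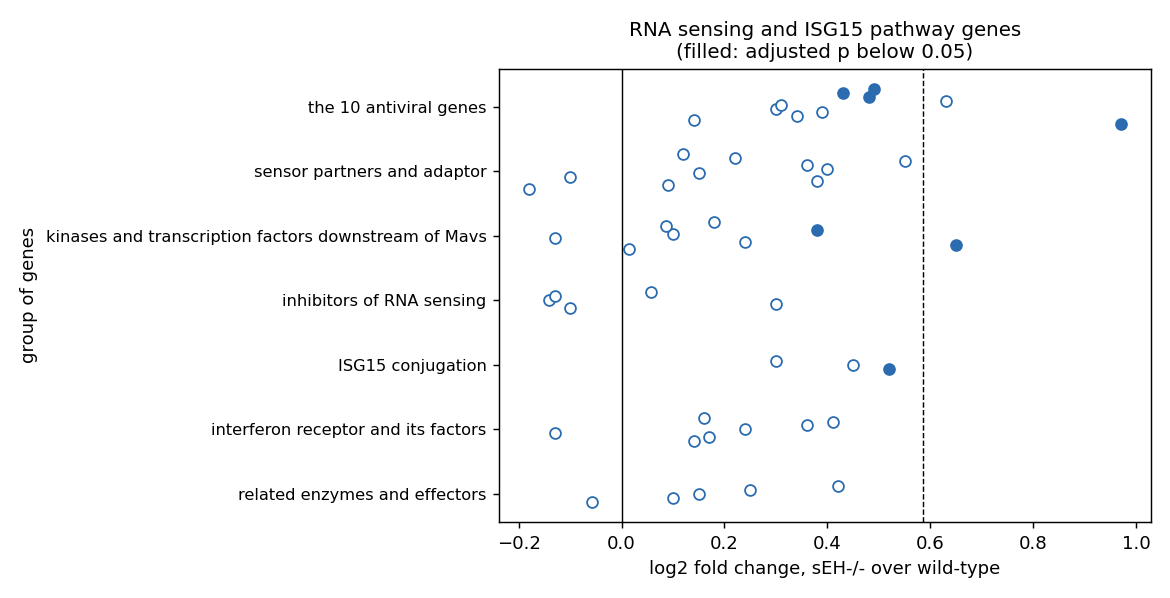
Log2FC values (x axis, sEH-/- over wild-type) of the 10 antiviral genes (top row) and of 38 tested genes of the pathway in 6 groups, with 1 point per gene, filled where the adjusted p was below 0.05. The dashed line marks the 1.5-fold threshold, past which lie *Cmpk2*, *Ifi44* and *Ikbke*.

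The genes outside the 10 whose pattern over the 6 libraries was most like theirs were found as those with the smallest mean absolute difference from the median of the 10 genes, in log2 CPM relative to each gene's own mean, among 10277 genes that had on average at least 50 counts. They were *Irgm2* (0.02), *Stat2* (0.023), *Borcs8* (0.028), *Acin1* (0.03) and *Rnf135* (0.031). *Irgm2* is an interferon-inducible GTPase, *Stat2* a transcription factor of the type I interferon receptor, and *Rnf135* (Riplet) a ubiquitin ligase of RIG-I. *Borcs8*, a subunit of a complex that positions lysosomes, and *Acin1*, a nuclear protein of RNA processing, are not known as interferon genes. Their log2FC values were 0.40, 0.41, 0.35, 0.37 and 0.38, which their choice by likeness to a profile that holds the genotype difference largely fixed, so they are given without a test. By the same measure *Ifih1* (0.026) and *Mx1* (0.03) lay closest to the median among the 10 genes and *Cmpk2* (0.29) and *Mx2* (0.18) farthest from it.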

How the data were processed

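RNA-seq of M2c-polarized macrophages from 3 sEH-/- and 3 wild-type mice was analysed. The authors deposited raw read counts per gene, made by trimming (Trimmomatic), alignment to mm10 (STAR), removal of duplicate (Picard), multi-mapping, ribosomal and mitochondrial reads, and strand-aware counting over exons (featureCounts). The submitters' processing notes name Trimmomatic 0.39, STAR 2.7.7a, Picard 2.21.7 and featureCounts 1.6.5, and the study's methods name other versions of the last 3. Library preparation also differs between the labels and the methods.

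Counts were fitted in R 4.3.3 with edgeR 4.0.16 (TMM, glmQLFit, glmQLFTest, genotype alone, two-sided) on 13785 genes with a mean above 5 counts. The SE was obtained from the log2FC (log2 fold change) and the F statistic. Calls required a more than 1.5-fold change in either direction and an adjusted p below 0.05, the criteria of the study, which used DESeq2. DESeq2 1.42.0 and limma 3.58.1 (voom) were alternatives, besides other normalizations and filters, a replicate block, each library left out, and a correction for a ceiling on read starts. P-values measure the spread between mice. Exonic lengths came from GENCODE M21 (19286 of 19309 identifiers matched), promoters from RefSeq (GRCm38.p6, 6 of 10 genes). Intervals for counts of 0 (3 counts) cover counting error only. No pair of libraries of a genotype agreed within sampling noise (chi-square per degree of freedom 2.28 to 4.96). The fitting steps were tested on simulated data. The 10 genes and the lists were chosen with earlier results of these data known. The rule for named genes took all 10, called genes of the pathway list, *Ephx2* and the 5 most alike in pattern. *Azi2*, *Uba7*, *Ube2l6*, *Herc6*, *Tbk1*, *Mavs*, *Ifnb1* and *Ifna4* of the pathway list and single marker genes fall outside it and were named after their values were seen.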

Additional observations from a re-analysis of the deposited data

How the results depend on the processing

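The direction of all 10 genes was kept in all 160 refits (16 alternatives each), but the number that passed was not. *Cmpk2* was the 1 called gene in edgeR, and 2 were called with DESeq2, without a filter on low counts and with at least 10 counts in every library. With a single library left out, between 0 and 3 were called (7 to 9 at an unadjusted p below 0.05 in edgeR), and none with the library total as a covariate, an alternative chosen after seeing the data (9 at an unadjusted p below 0.05). Without a fold threshold 4 passed, which became 2 with a replicate block, 1 with the covariate and 0 to 7 without single libraries (0 without replicate 2 of either genotype or wild-type replicate 3), against 6 with DESeq2 and 3 with limma-voom. Of the pathway genes 1 was called, 3 without a fold threshold and 0 to 3 without single libraries (12 to 24 at an unadjusted p below 0.05 in edgeR, 1 called by DESeq2 and 1 by limma-voom). Over all genes 360 were called, 234 with the replicate block, 171 with the covariate, 553 without a fold threshold and 6 to 625 without single libraries (6 without wild-type replicate 3, 25 without wild-type replicate 2). DESeq2 called 473 and limma-voom 307. The *Isg15* to *Usp18* difference of −0.0043 ranged from −0.049 to 0.037 without single libraries and turned positive without sEH-/- replicate 1 (0.037) or wild-type replicate 3 (0.0048). The cause of these changes was not tested. Same-numbered mice did not deviate together from the means of their genotypes (correlations −0.0818, −0.26 and −0.0367). With 3 libraries per genotype these correlations cannot exclude that the numbers pair the samples, for example by litter or processing. With the block *Cmpk2* kept its call (adjusted p = 0.024 by edgeR), and *Ddx58* (0.063) and *Ifih1* (0.076) were no longer below 0.05.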
